A study of Mus musculus with 17 samples.

Results

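The lysosomal proteases cathepsin D, B, S, K, L, Z, C and H (Ctsd, Ctsb, Ctss, Ctsk, Ctsl, Ctsz, Ctsc and Ctsh), legumain (Lgmn) and prosaposin (Psap) were followed across RNA-Seq libraries of cultures labelled as mouse lung fibroblasts. They were found by symbol in the deposited table, and all 10 were present among its 55421 genes. Each gene had more than 10 CPM (counts scaled to library size) in at least 2 libraries, so all 10 were among the 10481 genes kept for the test.

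The cultures came from Ephb4f/f;Col1a2-CreERT2 mice, so the floxed Ephb4 alleles and the Col1a2-driven, tamoxifen-inducible Cre were shared by every group. At 4 weeks of age the mice received either 4-hydroxytamoxifen at 1 mg/day for 5 days (Ephb4 CKO), which removes Ephb4 in Col1a2-expressing cells only, or the corn oil vehicle (Ephb4 control). At 6 weeks they received intratracheal bleomycin at 1.2 U/kg, a drug that injures the lung and leads to fibrosis, or PBS. On day 14 after this, lung cells were plated in 10% serum and passaged once, and total RNA was taken. The Ephb4 control groups held 4 mice after PBS and 4 after bleomycin and the Ephb4 CKO groups 5 and 4, with 1 library per mouse and 66540022 to 120554468 counts per library. The animal names carry a number series, 11 (8 libraries) or 12 (9 libraries), whose meaning the labels do not give. Every Ephb4 control bleomycin mouse was of series 12, and all but 1 of the control PBS mice were of series 11. Both CKO groups held both series. In control mice, bleomycin and number series can therefore hardly be told apart.

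Cathepsins are made as inactive precursors that reach the lysosome largely by mannose 6-phosphate sorting and become active in its acid interior. Cathepsins B, S, K, L, Z, C and H are cysteine proteases, cathepsin D is an aspartic protease, and legumain is a cysteine protease that cuts after asparagine and processes other cathepsins. Prosaposin is cut by lysosomal proteases into saposins, small proteins that present sphingolipids to their hydrolases. Macrophages are rich in these proteins, and in fibrotic tissue secreted cathepsins, cathepsin K above all, can degrade collagen and elastin. Cystatins and stefins hold the cysteine cathepsins in check.

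Ephb4, the targeted gene, was low in all groups, with 16.2 ± 15.5 CPM (SD, n = 4) after PBS and 39.0 ± 21.6 CPM (SD, n = 4) after bleomycin in Ephb4 control mice, against 9.79 ± 8.20 (SD, n = 5) and 9.77 ± 3.76 (SD, n = 4) in Ephb4 CKO mice. The labelled cell type was checked against its markers. The 15 fibroblast markers summed to between 80.4 and 11669 CPM per library, and the 20 macrophage markers to between 1308 and 45358 CPM. Outside the Ephb4 control bleomycin group the macrophage sum was above the fibroblast sum in every library. The lowest macrophage sum was 10086 CPM in control PBS, 19875 in CKO PBS and 20470 in CKO bleomycin. The highest fibroblast sums there were 7327, 2610 and 1891 CPM. In the Ephb4 control bleomycin group the macrophage sum had a median of 16867 CPM (1308 to 19407). The fibroblast sum of that group had a median of 9928 CPM (5323 to 11669), so macrophage transcripts were plentiful there too. Transcripts of macrophages were thus present in every culture labelled as fibroblasts, and the levels below cannot be assigned to fibroblasts. Epithelial markers summed to between 23.5 and 1892 CPM per library. Neutrophil markers summed to between 24.3 and 9700 CPM, the highest in an Ephb4 CKO PBS library, against at most 154 CPM in the other groups. The mean log2 CPM of the fibroblast markers kept was 7.06 to 7.80 in the 4 Ephb4 control bleomycin libraries and -0.34 to 6.86 in the other 13. One library stood apart from the rest: in mouse 1 of the Ephb4 control bleomycin group the macrophage mean was 3.60 log2 CPM, against 6.66 to 9.11 in the other 16. In 3 libraries, mouse 2 of the Ephb4 control bleomycin group and mice 1 and 2 of the Ephb4 CKO bleomycin group, the sex-linked transcripts went against the recorded sex. The medians over the 10 genes, and the values of single genes that moved most, are given below also without these libraries. Since these are bulk libraries, fewer cells of a type and less RNA per cell cannot be told apart.

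The genes are spread over the genome (GRCm38), and only Ctsk and Ctss are neighbours. Ctsk is at chr3:95499256-95509362 and Ctss at chr3:95526786-95556403, both on the forward strand and 17423 bases apart. Ctsd (chr7:142375911-142388038, reverse strand) and Ctsc (chr7:88278085-88310888, forward) share chromosome 7. Ctsb is at chr14:63122462-63145923 (forward), Ctsl at chr13:64359337-64370890 (reverse), Ctsz at chr2:174427493-174439039 (reverse), Ctsh at chr9:90054152-90076089 (forward), Lgmn at chr12:102394084-102439813 (reverse) and Psap at chr10:60277627-60302597 (forward). These are whole gene spans with exons and introns, and counts were assigned to transcripts on the sequenced strand. Genes that overlap a member on the same strand had little signal, at most 53.1 CPM for Gm49369 in Ctsd, 3.86 CPM for Hmgb1-ps5 in Ctss and 0.0172 CPM for Gm49230 in Ctsl.

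Promoter windows of 300 bases (250 before and 50 after the start site, RefSeq, GRCm38.p6) were at hand for 8 of the 10 genes. Both strands were searched for the E-box CACGTG, for TCACGTGA, the core of the element bound by the lysosomal regulator TFEB and its relatives, and for GAGGAAGT, a core read by the myeloid factor PU.1. TCACGTGA contains CACGTG, so each match of the longer motif is also one of the shorter. Of 32851 promoter windows, 7.15% held CACGTG, 0.974% TCACGTGA and 3.2% GAGGAAGT. Among the 8 genes, CACGTG was found in Ctsd (at -245 and -98 from the start site), Ctsl (-236) and 1 of the 2 windows of Lgmn (-49), TCACGTGA in Ctsd alone (-99), and GAGGAAGT on the reverse strand in Ctss (-2) and Ctsc (-151). The Lgmn window that holds the match is not the one at the outer 5′ end of the gene span, which has none of these letters. The only Ctsl window, chr13:64370471-64370770, lies inside the gene span, which ends at 64370890. The outer 5′ end of Ctsl was therefore not searched. The windows of Ctsd, the most abundant member, and of the neighbours Ctss and Ctsk are printed 5′ to 3′ on the strand of the gene because they hold different motifs. Capitals mark the matches, which read as the reverse complement in Ctss, and Ctsk has none of these letters. The windows are chr7:142387778-142388077 (reverse strand), chr3:95526536-95526835 (forward strand) and chr3:95498960-95499259 (forward strand).
Ctsd: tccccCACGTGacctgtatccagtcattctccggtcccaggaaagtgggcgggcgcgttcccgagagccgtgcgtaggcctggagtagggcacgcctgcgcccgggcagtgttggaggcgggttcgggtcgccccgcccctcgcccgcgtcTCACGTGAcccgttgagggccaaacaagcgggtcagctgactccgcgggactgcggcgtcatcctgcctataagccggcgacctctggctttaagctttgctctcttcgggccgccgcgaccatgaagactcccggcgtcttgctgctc
Ctss: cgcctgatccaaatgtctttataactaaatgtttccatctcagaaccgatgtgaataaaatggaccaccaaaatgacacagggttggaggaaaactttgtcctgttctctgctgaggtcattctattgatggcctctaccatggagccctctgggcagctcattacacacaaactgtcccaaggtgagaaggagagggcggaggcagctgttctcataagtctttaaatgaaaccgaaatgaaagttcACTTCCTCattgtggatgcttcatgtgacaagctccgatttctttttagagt
Ctsk: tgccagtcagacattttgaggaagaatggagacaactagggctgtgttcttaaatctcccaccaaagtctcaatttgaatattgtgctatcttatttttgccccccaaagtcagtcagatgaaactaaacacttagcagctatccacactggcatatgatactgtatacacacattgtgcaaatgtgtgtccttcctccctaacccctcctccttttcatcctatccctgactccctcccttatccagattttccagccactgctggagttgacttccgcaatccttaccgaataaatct

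The 10 genes together took 4.08% of all counts in a library at the median. The share was 0.551% in mouse 1 of the Ephb4 control bleomycin group, 1.91% in mouse 3 of the Ephb4 control PBS group and between 2.42% and 6.97% elsewhere. By group it was 3.75 ± 1.77% (SD, n = 4) after PBS and 2.56 ± 1.55% (SD, n = 4) after bleomycin in Ephb4 control mice, and 4.73 ± 1.42% (SD, n = 5) and 5.13 ± 1.63% (SD, n = 4) in Ephb4 CKO mice. Ctsd accounted for 27.9% to 56.7% of the sum of the 10 genes' CPM and Psap for 16.4% to 27.9%. The share of Ctsl ran from 1.93% in mouse 4 of the Ephb4 CKO bleomycin group to 14.2% in mouse 5 of the Ephb4 CKO PBS group.

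**Figure D1:**
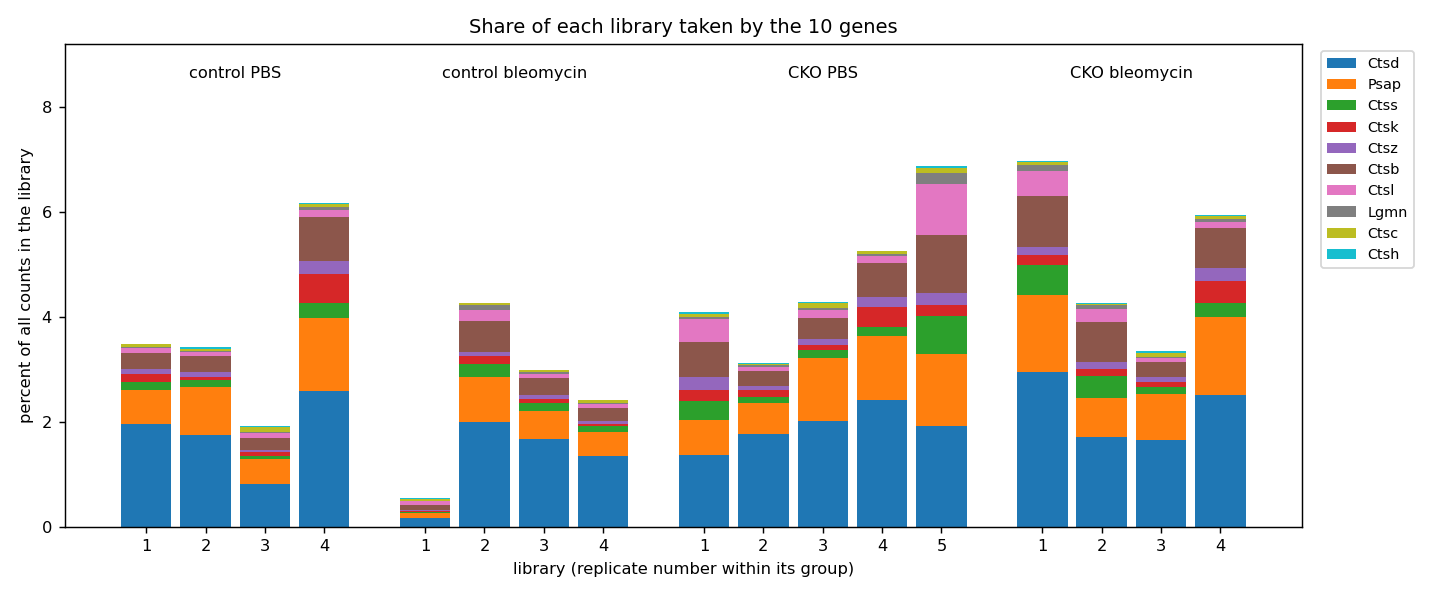
Stacked bars give the percent of all counts in each of the 17 libraries that fell on the 10 genes, by group and replicate. The whole bars run from 0.551% (control bleomycin 1) to 6.97% (CKO bleomycin 1), and Ctsd and Psap form the base of each.

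For comparison between genes, CPM was divided by the length of the merged exons in kilobases. This length was 6051 bases for Ctsb, 6489 for Ctsl, 5808 for Ctsc and 4499 for Ctsh. It was 1358 for Ctss, 1512 for Ctsk and 1441 for Ctsz. Merged exons can be longer than the transcript expressed, and which transcripts were expressed was not tested. On this scale the median level over 17 libraries was 8298 CPM per kb for Ctsd and 3322 for Psap. Ctsd exceeded Psap in 17 of 17 libraries, and Psap exceeded the next gene, Ctss, in 14. Ctss (1106 CPM per kb), Ctsk (924), Ctsz (761) and Ctsb (657) formed a middle range in which the order changed between libraries. Ctss was above Ctsk in 13 of 17, Ctsk above Ctsz in 10 and Ctsz above Ctsb in 10. Ctsb lay above Ctsl in 17 of 17. Ctsl (184 CPM per kb) and Lgmn (168) were not separated, as Ctsl was higher in 9 of 17 libraries. Ctsc (85.9) and Ctsh (36.1) were the lowest, with Ctsc above Ctsh in 17 of 17. This order depended on the lengths used. By CPM alone the median over 17 libraries was 3976 for Ctsb against 1502 for Ctss, and 499 for Ctsc against 391 for Lgmn. From the lowest to the highest library the level spanned 137-fold for Ctss, 39.2-fold for Ctsk, 28.5-fold for Lgmn, 22.4-fold for Ctsd and 21.5-fold for Ctsz. The span was 19.3-fold for Psap, 18.5-fold for Ctsl, 17.1-fold for Ctsb, 6.05-fold for Ctsh and 5.51-fold for Ctsc. Without mouse 1 of the control bleomycin group the span was 15.8-fold for Ctsl, 14.2-fold for Ctss, 13.4-fold for Ctsk and 10.3-fold for Lgmn, against 4.39-fold for Ctsd and 4.09-fold for Psap. It was 8.69-fold for Ctsz and 7.09-fold for Ctsb without that library, and those of Ctsh and Ctsc were as before.

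**Figure D2:**
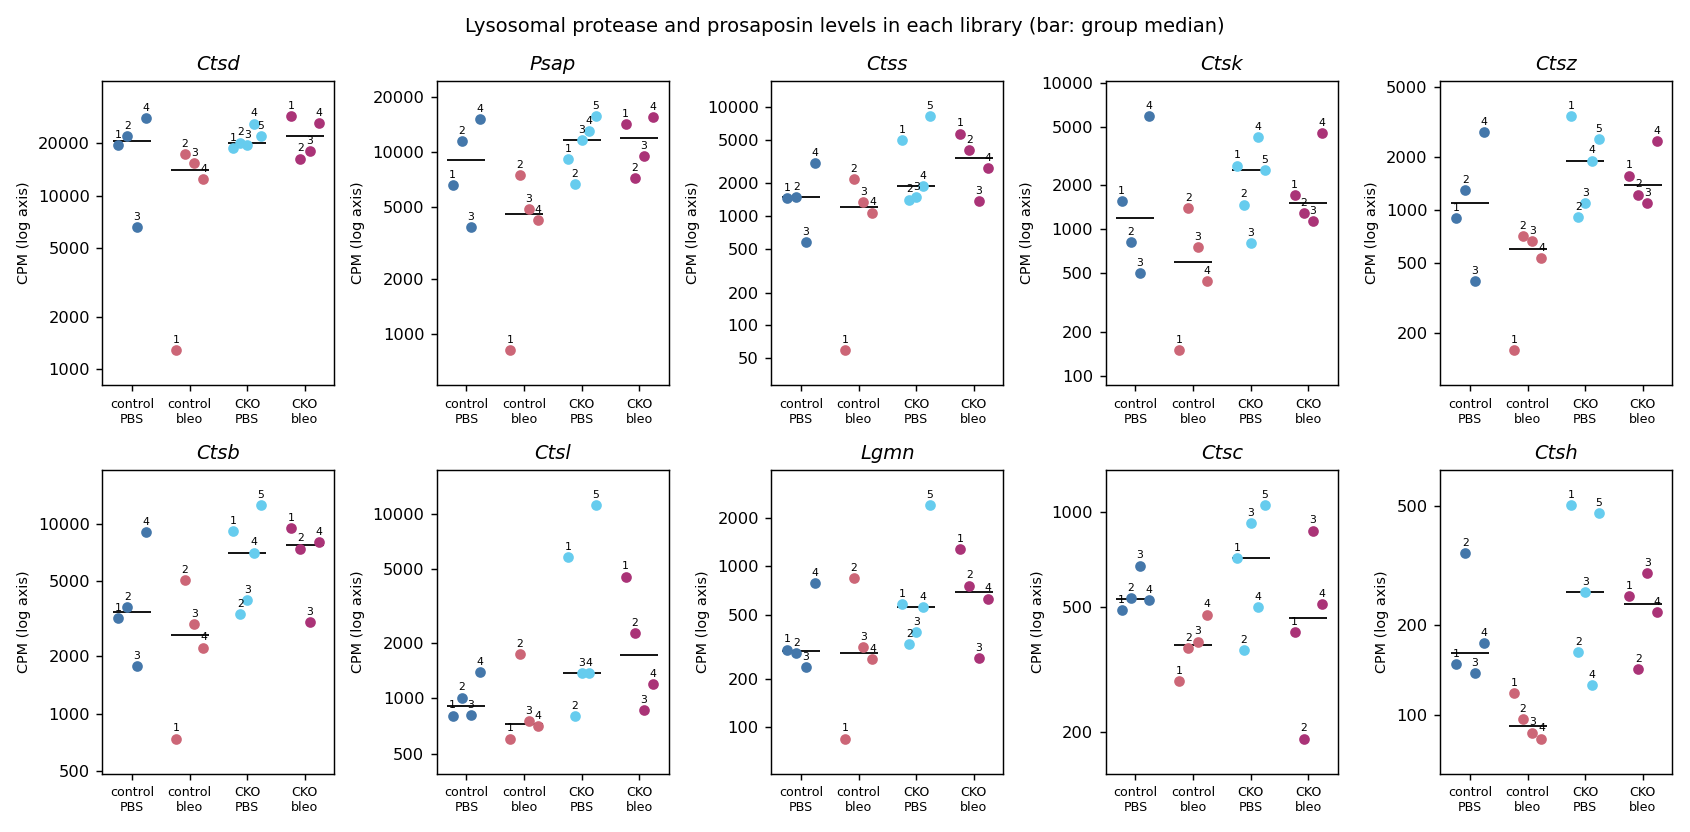
Each panel plots the CPM of 1 gene on a log axis, with a point per library numbered by replicate and a bar at the group median. Mouse 1 of the control bleomycin group was lowest of 17 for 8 of the 10 genes, the exceptions being Ctsc and Ctsh.

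Ctsd, the main aspartic protease of lysosomes, was at 19649, 21929, 6553 and 28037 CPM in Ephb4 control mice given PBS and at 1284, 17306, 15457 and 12448 CPM after bleomycin. In Ephb4 CKO mice it was at 18704, 20219.5, 19509, 26058 and 21936 CPM after PBS and at 28752, 16349, 18126 and 26288 CPM after bleomycin. Each control group held a library far below all Ephb4 CKO libraries, and the groups overlapped.

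Psap was at 6554, 11396, 3840 and 15110 CPM in Ephb4 control mice given PBS and at 814, 7473, 4855 and 4221 CPM after bleomycin. The Ephb4 CKO values were 9117, 6661, 11551, 13040 and 15715 CPM after PBS and 14251, 7167, 9501 and 15455 CPM after bleomycin. After bleomycin 3 of 4 CKO libraries exceeded every control, and the fourth lay just under the highest control.

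Ctss, an elastinolytic cathepsin that also trims the MHC class II invariant chain in antigen-presenting cells, was at 1467, 1502, 577 and 3067 CPM in Ephb4 control mice given PBS and at 59.7, 2173, 1333 and 1076 CPM after bleomycin. In Ephb4 CKO mice it was at 4911, 1416, 1488, 1880 and 8196 CPM after PBS and at 5677, 4031, 1377 and 2728 CPM after bleomycin. The groups overlapped, with mice 1 and 5 of the CKO PBS group and mouse 1 of the CKO bleomycin group the 3 highest of 17.

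Ctsl, a broad endopeptidase, was high in the same 3 libraries. It was at 5798 and 11145 CPM in mice 1 and 5 of the Ephb4 CKO PBS group and at 797, 1363 and 1365 CPM in the other 3 mice, and at 4553, 2242, 860.1 and 1195.4 CPM in Ephb4 CKO mice given bleomycin. Ephb4 control mice had 806, 1007, 806 and 1387 CPM after PBS and 604, 1731, 749 and 707 CPM after bleomycin. Unlike Ctsd and Ctss, which in mouse 1 of the control bleomycin group were at 6.56% and 3.53% of the median of the other 16 libraries, Ctsl there was at 47.2%.

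Ctsb, which acts both as endopeptidase and as dipeptidyl carboxypeptidase, was at 3196, 3642, 1779 and 9041 CPM in Ephb4 control mice given PBS and at 737, 5074, 2961 and 2226 CPM after bleomycin. In Ephb4 CKO mice it was at 9151, 3360, 3976, 7070 and 12621 CPM after PBS and at 9466, 7417, 3050 and 8004 CPM after bleomycin. Its 3 highest libraries were again the 3 that led Ctss and Ctsl. Lgmn was at 304, 288, 236 and 789 CPM in Ephb4 control mice given PBS and 84.7, 849, 315 and 264 CPM after bleomycin. The Ephb4 CKO mice had 583, 328, 391, 555 and 2418 CPM after PBS and 1281, 759, 270 and 631 CPM after bleomycin. A single library, mouse 5 of the CKO PBS group, was far above the others of its group for Lgmn.

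Ctsk, the collagenolytic cathepsin best known from osteoclasts, had another leading library. It was at 1563, 813, 499.98 and 5904 CPM in Ephb4 control mice given PBS and at 150.5, 1397, 752 and 441 CPM after bleomycin. In Ephb4 CKO mice the values were 2714, 1470, 802, 4239 and 2516 CPM after PBS and 1718, 1294, 1133 and 4505 CPM after bleomycin. The 3 highest values came from mouse 4 of the control PBS, CKO bleomycin and CKO PBS groups, none of which was among the 3 highest for Ctss or Ctsl. These 3 libraries also had 3 of the 5 lowest fibroblast means, at -0.33, -0.34 and 0.82 log2 CPM.

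Ctsz, a carboxypeptidase, was at 898, 1296, 393 and 2770 CPM in Ephb4 control mice given PBS and at 159, 708, 665 and 531 CPM after bleomycin. In Ephb4 CKO mice it was at 3421, 908, 1096, 1907 and 2540 CPM after PBS and at 1567, 1222, 1092 and 2469 CPM after bleomycin. After bleomycin every CKO library was above every control library.

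Ctsh, an aminopeptidase that also matures surfactant protein in lung epithelium, was at 148, 348, 138 and 174 CPM in Ephb4 control mice given PBS and at 118, 96.9, 87.3 and 83.4 CPM after bleomycin. The Ephb4 CKO values were 504, 163, 257, 126 and 473 CPM after PBS and 250, 143, 299 and 221 CPM after bleomycin. The Ephb4 control bleomycin libraries were the 4 lowest of 17, and mouse 1 was not the lowest of them. Ctsc, the dipeptidyl peptidase that activates granule serine proteases of leukocytes, was at 489, 534, 676 and 525 CPM in Ephb4 control mice given PBS and at 291, 369, 388 and 473 CPM after bleomycin. In Ephb4 CKO mice it was at 713, 364, 922, 499 and 1053 CPM after PBS and at 415, 191, 871 and 510 CPM after bleomycin. The lowest Ctsc value was in mouse 2 of the CKO bleomycin group, and the 2 control groups did not overlap.

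The genes did not vary as 1 block. Over 17 libraries the Spearman correlation of log2 CPM, given as a description across libraries that share groups and cell content, was 0.99 for Ctsb with Ctss, 0.94 for Ctss with Ctsl, 0.92 for Ctsb with Lgmn and 0.87 for Ctsd with Psap. Ctsc stood aside, at 0.05 with Lgmn, 0.20 with Ctss, 0.22 with Ctsk and 0.26 with Ctsb, and was nearest to Ctsh at 0.69. The neighbours Ctsk and Ctss correlated at 0.77, below the 0.85 of Ctsk with Ctsz on another chromosome. Without mouse 1 of the control bleomycin group the ends of the range were -0.11 for Ctsc with Lgmn and 0.98 for Ctsb with Ctss.

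**Figure D3:**
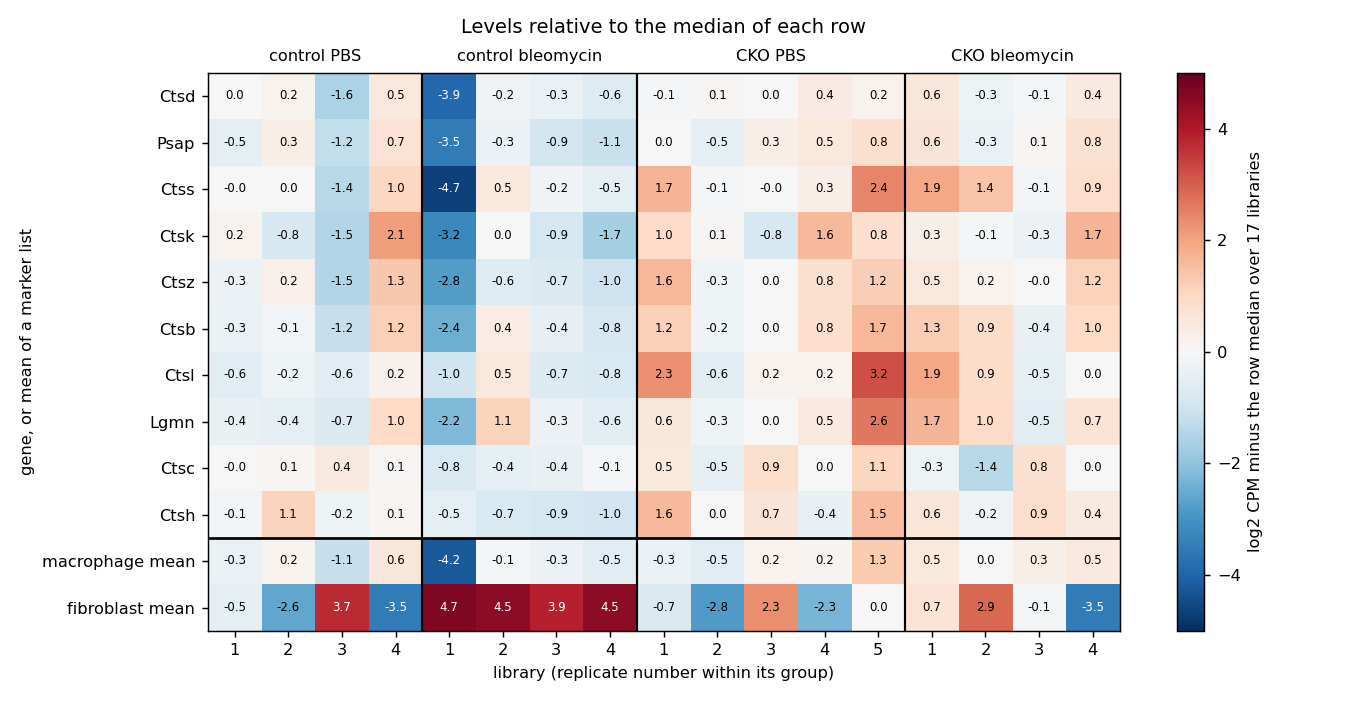
Cells give log2 CPM of each gene, and of the macrophage and fibroblast marker means in the last 2 rows, minus the median of the row over 17 libraries, by group and replicate. Most members and the macrophage mean were far below the median in control bleomycin mouse 1, and the fibroblast mean was above it in all 4 libraries of that group.

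The first comparison asked how bleomycin altered these transcripts in Ephb4 control mice. The log2 fold change of bleomycin versus PBS was below 0 for 10 of 10 genes, with a median of -0.70, against -0.06 for all genes tested. It was -1.68 (SE 0.81) for Ctsk, -1.38 (SE 0.59) for Ctsz, -1.09 (SE 0.54) for Psap and -1.07 (SE 0.43) for Ctsh. Ctsd (-0.71, SE 0.56), Ctsb (-0.68, SE 0.60), Ctsc (-0.55, SE 0.39) and Ctss (-0.51, SE 0.82) were intermediate, and Lgmn (-0.10, SE 0.74) and Ctsl (-0.08, SE 0.74) were near 0. In the quasi-likelihood test of edgeR, adjusted by Benjamini-Hochberg, none of the 10 was called at an adjusted p of 0.05, the smallest being 0.323 for Ctsh, and 0% of the genes tested were called (0 of 10481).

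At an unadjusted p under 0.05, edgeR had 2 of the 10 genes (Ctsz and Ctsh) on the lower side, where 7.98% of the genes tested lay. The groups did not overlap for Ctsh and Ctsc, with bleomycin lower, as for 3.2% of the genes tested. DESeq2 called 166 genes in this comparison, none of them a member. Without mouse 1 of the control bleomycin group the median of the 10 was -0.37, Ctsl (0.13) and Lgmn (0.28) lay above 0, and Ctsk was at -1.30, Ctsd at -0.30 and Ctss at -0.07. Without mouse 4 of the control PBS group, which had the highest Ctsk level, Ctsk was at -0.48, Ctsz at -0.74, Ctsd at -0.46, Ctsb at -0.06 and Ctss at -0.03, Ctsl (0.12) and Lgmn (0.45) lay above 0, and the median of the 10 was -0.47. The value of Ctsh was -0.65 without mouse 2 of that group. The order of the genes by size of change thus depended on single libraries. Beside this stood the cell type markers: the 20 macrophage markers had a median log2 fold change of -0.93 with 17 below 0, and the 13 fibroblast markers kept one of 2.49 with 13 above 0. With the fibroblast mean as a covariate the median of the 10 genes was 0.00 (5 above 0), and with the macrophage mean -0.28 (3 above 0). The fibroblast mean was higher in every Ephb4 control bleomycin library than in any other library. That covariate therefore cannot separate cell content from bleomycin, and the part of cell content in the result was not tested.

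The second comparison asked whether loss of Ephb4 in Col1a2-expressing cells changed these transcripts after bleomycin. On the log2 scale, the change from Ephb4 control to CKO was above 0 for 10 of 10 genes, with a median of 1.29, against 0.01 for all genes tested. Ctsk (1.66, SE 0.81), Ctsz (1.62, SE 0.59), Ctss (1.57, SE 0.84) and Psap (1.42, SE 0.55) were the highest in the fit of all libraries, followed by Ctsb (1.34, SE 0.61), Ctsh (1.24, SE 0.43) and Ctsl (1.22, SE 0.75). Lgmn (0.96, SE 0.74), Ctsd (0.95, SE 0.56) and Ctsc (0.39, SE 0.39) were lower. None of the 10 was called by edgeR (Benjamini-Hochberg), with adjusted p from 0.210 (Ctsh) to 0.556 (Ctsc), and of all genes tested 0% were called. This comparison and the first share the 4 Ephb4 control bleomycin libraries, so their opposite signs are not independent.

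At an unadjusted p under 0.05 from edgeR, 4 of the 10 genes (Ctsh, Ctsz, Psap and Ctsb) were on the higher side, where 11% of the genes tested lay. For Ctsz and Ctsh the groups did not overlap, with CKO higher, as for 11% of the genes tested. DESeq2 called 399 genes here, none of them a member, and its adjusted p was 0.0725 for Ctsh and 0.0757 for Ctsz. Without mouse 1 of the control bleomycin group the median of the 10 was 1.03 and 10 of 10 stayed above 0, from 0.24 (Ctsc) to 1.32 (Ctsh). Ctsk was at 1.012 without mouse 4 of the CKO bleomycin group, which had the highest Ctsk level of that group, and at 2.27 without mouse 2 of the control group. Ctsl was at 0.60 and Lgmn at 0.55 without mouse 1 of the CKO bleomycin group, and Lgmn at 1.73 without mouse 2 of the control group. Ctsc was at -0.03 without mouse 3 of the CKO group and at 0.66 without mouse 2. The order of the genes was therefore not stable against single libraries either. The macrophage markers had a median of 1.11 with 20 of 20 above 0, and the fibroblast markers of -2.47 with 13 of 13 below 0. With the macrophage mean as a covariate the median of the 10 was 0.53, Ctsh was at 1.18 and Lgmn at -0.03, and with the fibroblast mean it was 0.77, with Ctsk at -0.06. Neither marker mean overlapped between the control and CKO libraries after bleomycin. These covariates therefore cannot separate cell content from loss of Ephb4, and the part of cell content was not tested.

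**Figure D4:**
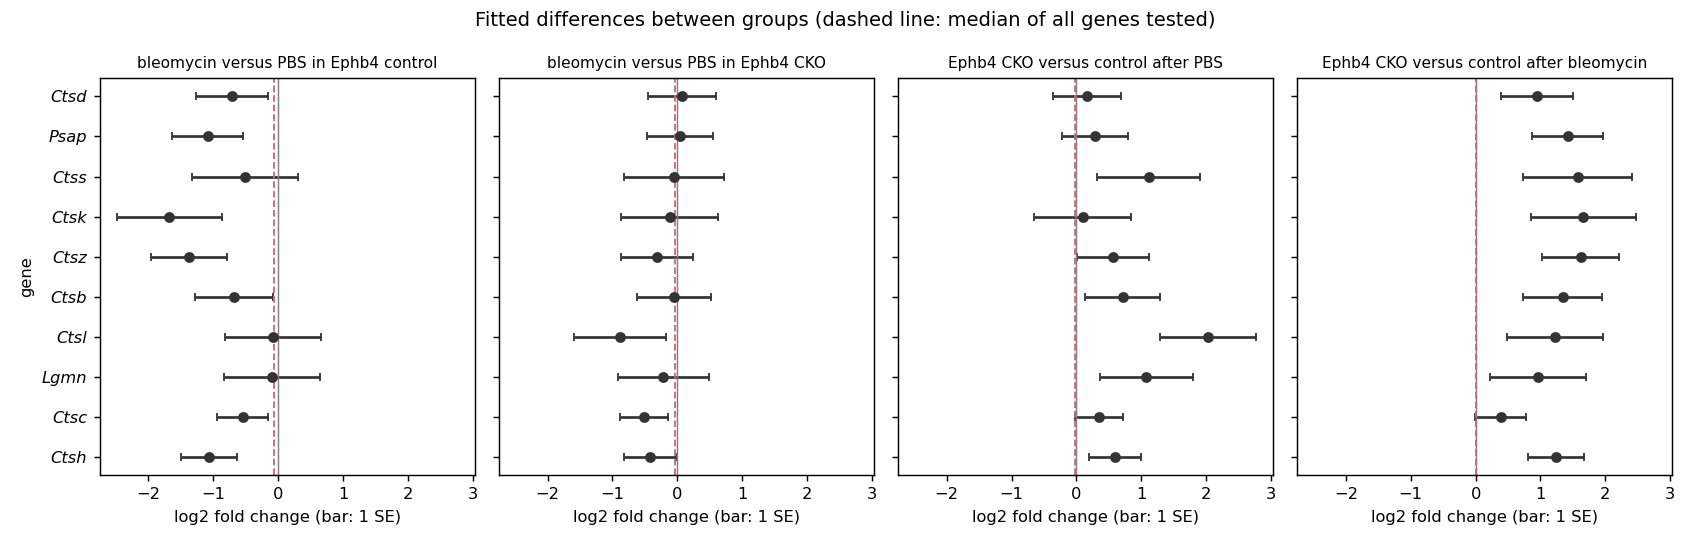
Points give the log2 fold change of each gene in 4 comparisons, with bars of 1 SE from edgeR, and the dashed line is the median of all genes tested. After bleomycin the 10 points of CKO versus control lie between 0.39 and 1.66, and those of bleomycin versus PBS in control mice between -1.68 and -0.08.

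The third comparison asked about loss of Ephb4 without injury. After PBS the log2 change from Ephb4 control to CKO was above 0 for 10 of 10 genes, with a median of 0.58, against -0.02 for all genes tested. Ctsl had the largest value, 2.03 (SE 0.74), with group means of 4094 ± 4427 CPM (SD, n = 5) and 1001 ± 274 CPM (SD, n = 4). Ctss (1.11, SE 0.80), Lgmn (1.08, SE 0.71), Ctsb (0.71, SE 0.58), Ctsh (0.59, SE 0.40) and Ctsz (0.56, SE 0.56) followed. Ctsc (0.35, SE 0.37), Psap (0.28, SE 0.51), Ctsd (0.16, SE 0.53) and Ctsk (0.10, SE 0.75) were small against their errors. The Benjamini-Hochberg adjusted p of edgeR was 1.00 for each, and none was called (0% of the genes tested). At an unadjusted p under 0.05 on the higher side there was 1 of the 10, Ctsl, where 1.43% of the genes tested lay. The value of Ctsl rested on mice 1 and 5 of the CKO PBS group: without mouse 5 it was 1.22, Ctss was 0.55 and Lgmn 0.20, and the median of the 10 was 0.29. The median was 1.24 without mouse 4 of the control PBS group, and Ctsk was then at 1.29. The macrophage markers had a median log2 fold change of 0.41 in this comparison, with 16 of 20 above 0, and the fibroblast markers of -1.43. With the macrophage mean as a covariate the median of the 10 genes was 0.57, and with the fibroblast mean it was 0.74, with 10 of 10 above 0 under both.

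Bleomycin versus PBS within Ephb4 CKO mice gave a median log2 fold change of -0.17 over the 10 genes, against -0.03 for all genes tested. The values were 0.07 for Ctsd, 0.05 for Psap, -0.05 for both Ctsb and Ctss, -0.12 for Ctsk and -0.22 for Lgmn. Ctsz was at -0.31, Ctsh at -0.42, Ctsc at -0.52 and Ctsl at -0.89, with standard errors from 0.37 to 0.78 over the 10 genes. Each adjusted p was 1.00 in edgeR's quasi-likelihood test, and 0% of the genes tested were called. The median of the 10 was 0.0041 without mouse 5 of the CKO PBS group, 0.08 without mouse 3 of the CKO bleomycin group and -0.39 without mouse 3 of the CKO PBS group, so that its sign rested on single libraries. Ctsl was at -0.08 without mouse 5 of the CKO PBS group and at -1.51 without mouse 1 of the CKO bleomycin group. The macrophage markers had a median of -0.17 with 13 of 20 below 0, the fibroblast markers of 0.47 with 9 of 13 above 0, and the smooth muscle and pericyte markers of 1.74 with 4 of 4 above 0. The rise of the smooth muscle and pericyte markers was not particular to CKO mice. For bleomycin in Ephb4 control mice their median was 3.78 with 4 of 4 above 0. For CKO versus control after bleomycin it was -2.35 with 4 of 4 below 0. With the macrophage mean as a covariate the median of the 10 was -0.25, and with the fibroblast mean -0.08.

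The interaction asked whether bleomycin acted differently in Ephb4 CKO and control mice. The difference of the log2 fold changes was 1.56 (SE 1.09) for Ctsk, 1.14 (SE 0.74) for Psap, 1.06 (SE 0.80) for Ctsz and 0.78 (SE 0.76) for Ctsd. It was 0.65 for Ctsh, 0.63 for Ctsb, 0.46 for Ctss, 0.03 for Ctsc, -0.12 for Lgmn and -0.81 for Ctsl. By edgeR with Benjamini-Hochberg adjustment no interaction was called among the 10 genes (smallest adjusted p 0.916) or over all genes (0%). A difference in the response to bleomycin between genotypes was thus not shown for any of these genes, whose errors leave room for differences in either direction. The median of the 10 was 0.64, and it was 0.32 without mouse 1 of the control bleomycin group and 0.21 without mouse 4 of the control PBS group, where Ctsk was at 0.37. In the interaction the macrophage markers had a median of 0.78 with 14 of 20 above 0 and the fibroblast markers of -2.19 with 13 of 13 below 0. With the macrophage mean as a covariate the median of the 10 was -0.04, and with the fibroblast mean -0.07, with 4 of 10 above 0 under both. The fibroblast mean was highest in the Ephb4 control bleomycin libraries, so that covariate cannot separate cell content from group. The part of cell content was not tested.

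Without the 3 libraries that went against the recorded sex, none of the 10 was called in any of the 5 comparisons, and the medians were -1.02 (bleomycin in control mice), 1.34 (CKO after bleomycin), 0.59 (CKO after PBS), -0.23 (bleomycin in CKO mice) and 0.75 (interaction). This left 3 control and 2 CKO libraries after bleomycin. Single values moved further: after bleomycin the change from control to CKO was 2.62 for Ctsk and 0.54 for Ctsl. For bleomycin in control mice Ctsk was at -2.27, Ctsb at -1.14, Ctss at -0.99, Lgmn at -0.85 and Ctsl at -0.53. For bleomycin in CKO mice Ctsl was at -2.03, Lgmn at -0.96 and Ctss at -0.84. In the interaction Ctsk was at 2.503, Psap at 1.59 and Ctsl at -1.50.

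Genes that work with the cathepsins and saposins were read in the same fits, where edgeR called none of their genes in any comparison. DESeq2 called 1 gene of these lists in CKO versus control after bleomycin, Atp6v1b2, a proton pump subunit (log2 fold change 1.53, adjusted p just under 0.05), and, with the sorted runs of columns as a term, 1 for bleomycin in control mice, Acp5, an acid phosphatase (-1.85, adjusted p 0.0161). Both were named because DESeq2 called them, after their values were seen. After bleomycin in Ephb4 control mice, 9 of 11 saposin-dependent lipid hydrolases and their partners had a log2 fold change below 0 (median -0.38), as had 11 of 13 other acid hydrolases (-0.61), 7 of 8 sorting genes (-0.38), 12 of 12 lysosomal membrane and acidification genes (-0.65) and 4 of 4 MiT/TFE transcription factors (-1.05). In Ephb4 CKO versus control mice after bleomycin the same lists had 10 of 11 (median 0.78), 12 of 13 (0.95), 8 of 8 (0.72), 12 of 12 (0.86) and 4 of 4 (1.21) above 0. The remaining cathepsins differed, with 2 of 5 above 0 and a median of -0.34. Over all genes tested, 5821 of 10481 were below 0 in the first of these comparisons and 5312 above 0 in the second.

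Among named genes of these lists in Ephb4 CKO versus control mice after bleomycin, edgeR's log2 fold change was 1.15 (SE 0.54) for Hexa, the alpha subunit of beta-hexosaminidase, and 0.40 (SE 0.33) for Asah1, acid ceramidase. It was 1.90 (SE 0.79) for Lipa, lysosomal acid lipase. Lamp1, a lysosomal membrane glycoprotein, was at 0.89 (SE 0.39) and Atp6v0d2, a subunit of the proton pump, at 1.48 (SE 0.73). Grn, the progranulin precursor that binds prosaposin and cathepsin D, was at 0.75 (SE 0.47), and Sort1, the sortilin receptor, at 0.93 (SE 0.61). Mitf and Tfe3, factors that drive lysosomal genes, were at 1.51 (SE 0.53) and 0.39 (SE 0.23).

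Of the inhibitors, only Cst3 (cystatin C) and Cstb (stefin B) out of 7 passed the filter on low values. Their mean CPM over all libraries was 269 and 299. The log2 fold change after bleomycin in Ephb4 control mice was -0.00 (SE 0.51) for Cst3 and -1.18 (SE 0.57) for Cstb, and in Ephb4 CKO versus control mice after bleomycin it was 0.82 (SE 0.51) and 1.38 (SE 0.57). Ctsa, a serine carboxypeptidase, and Ctse, an aspartic protease, led the other cathepsins, with means of 693 and 33.8 CPM. Their log2 fold changes of CKO versus control after bleomycin were 0.93 (SE 0.47) and -0.80 (SE 1.44).

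The level of each gene was set against the macrophage and fibroblast marker means over the 17 libraries, giving 20 relations. The permutations shuffled values over all 17 libraries without regard to group. Their p-values therefore also take in differences between the groups. Psap followed the macrophage mean most closely, with Pearson's r = 0.95 (permutation p = 1e-05, the smallest that 100000 resamples can give; adjusted 0.00015) and Spearman's rho = 0.94 (permutation p = 1e-05, adjusted 0.0002). Without the 2 libraries farthest from the median, mouse 1 of the control bleomycin group and mouse 5 of the CKO PBS group, r was 0.91. Within animals of number series 11 (8 libraries) and 12 (9 libraries), the series read from the animal names, r was 0.90 and 0.96. Psap was first in neither series, with Ctss at 0.95 in series 11 and Ctsd at 0.98 in series 12. Over all 17 libraries r for Ctsd was 0.94 (rho 0.77) and 0.86 without the 2 libraries, and for Ctss 0.91 (rho 0.72) and 0.62.

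By Pearson's r over all 17 libraries, the relation to the macrophage mean was weaker for the other genes. Pearson's r was 0.83 for Ctsb, 0.82 for Ctsz, 0.79 for Lgmn and 0.75 for Ctsk, and 0.70, 0.68, 0.61 and 0.60 without the 2 libraries. By rho and by r without the 2 libraries, Ctsb and Ctsz were not below Ctss. Their rho was 0.75 each against 0.72 for Ctss, whose r without the 2 libraries was 0.62. Within number series 11 and 12 they were below Ctss. There r was 0.86 and 0.85 for Ctsb and 0.88 and 0.78 for Ctsz, against 0.95 and 0.95 for Ctss. Ctsl had r = 0.51 (permutation p = 0.0517, adjusted 0.0738) and rho = 0.66 (permutation p = 0.00524, adjusted 0.0105), with r = 0.34 without the 2 libraries. For Ctsh r was 0.43 (permutation p = 0.0811, adjusted 0.101) and rho 0.59 (permutation p = 0.0138, adjusted 0.0213). Ctsc had the lowest coefficients, with r = 0.41 (permutation p = 0.107, adjusted 0.125), rho = 0.45 (permutation p = 0.0703, adjusted 0.0879), and r = 0.02 without the 2 libraries.

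Against the fibroblast mean all 10 coefficients were negative. Ctsk had r = -0.75 (permutation p = 0.00038, adjusted 0.00095; rho = -0.75, permutation p = 0.00069, adjusted 0.00312), and r = -0.77 without mice 1 and 2 of the control bleomycin group, -0.78 in series 11 and -0.66 in series 12. By r, Ctsz (r = -0.73, permutation p = 0.00067, adjusted 0.00134), Psap (r = -0.66, permutation p = 0.001, adjusted 0.00182) and Ctsd (r = -0.61, permutation p = 0.0002, adjusted 0.000571) followed. By rho, Ctsd was the most negative, at -0.78 (permutation p = 0.0004, adjusted 0.00312), and its r was -0.72 without the same 2 libraries. Pearson's r was -0.53 for Ctsb, -0.52 for Ctsh, -0.43 for Ctss, -0.30 for Lgmn, -0.26 for Ctsc and -0.16 for Ctsl. For Ctsl the permutation p was 0.536 (adjusted 0.536). In series 11, Ctsc had r = 0.67, the only coefficient above 0 in that series.

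**Figure D5:**
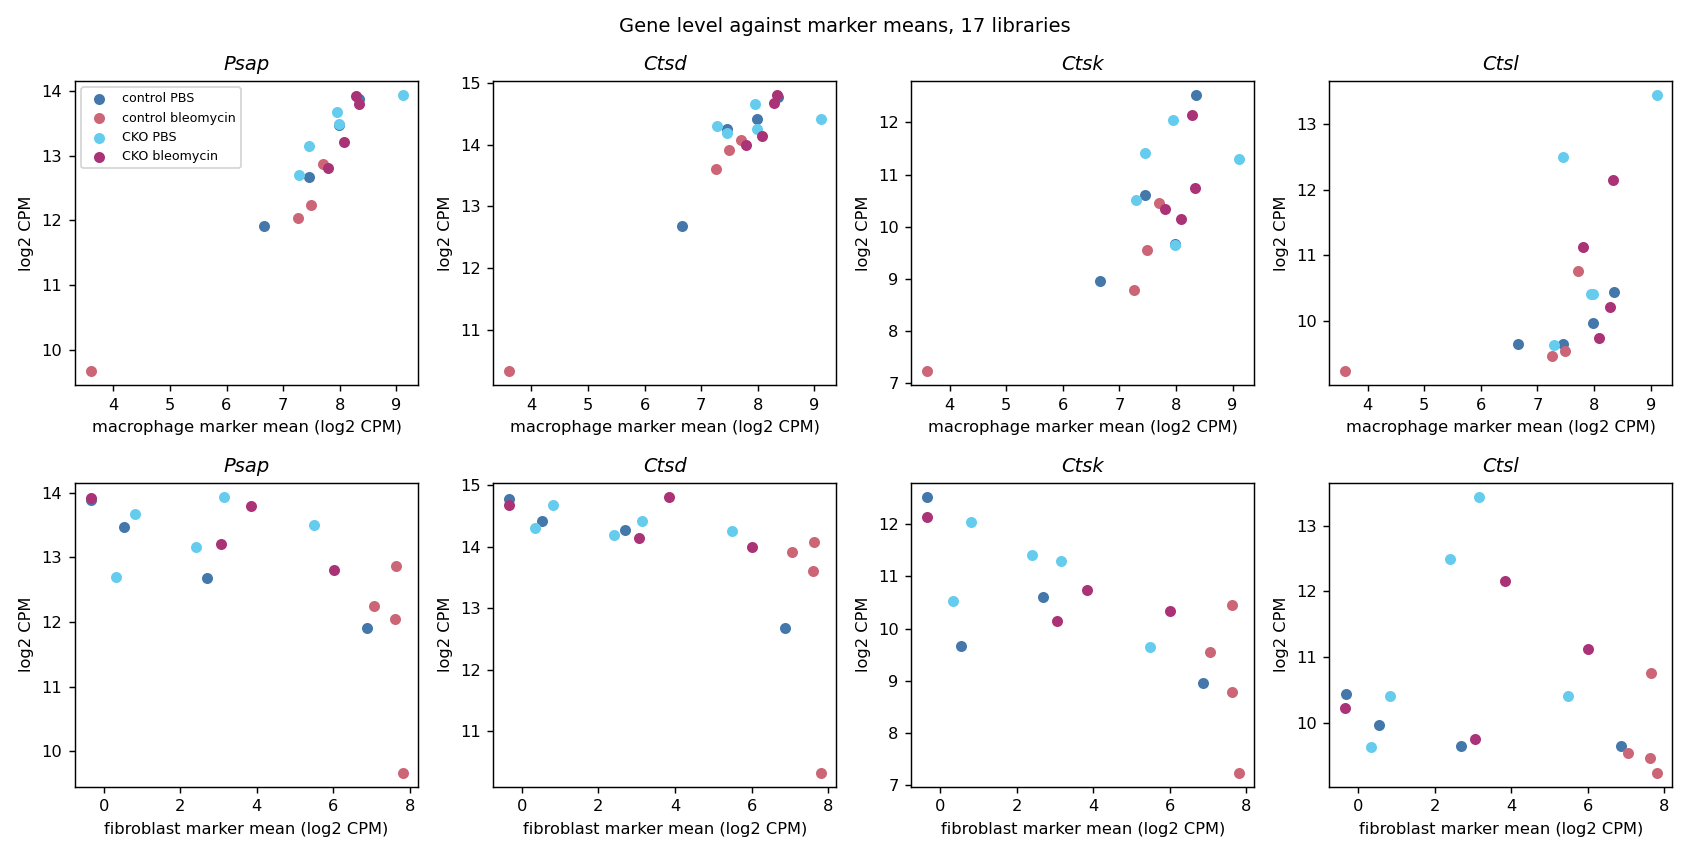
Points are the 17 libraries, coloured by group, with the log2 CPM of Psap, Ctsd, Ctsk and Ctsl against the macrophage marker mean (upper row) and the fibroblast marker mean (lower row). Psap lies close to a line in the upper row (r = 0.95) and Ctsl does not (r = 0.51), and the isolated point at a macrophage mean of 3.60 is control bleomycin mouse 1.

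The genes most like each member were ranked by the Spearman correlation of log2 CPM over the 17 libraries among the genes kept, members left out. For Ctsd they were Tfeb (0.95), a regulator of lysosomal genes, and Rnpepl1 (0.94), for Psap Hmox2 and Arhgap9 (both 0.98), and for Lgmn Grn (0.94) and Tgfbrap1 (0.94). Ctsz was nearest to Ccrl2 (0.99) and Galns (0.98), a lysosomal sulfatase, Ctsb to Pip5k1c (0.97) and Ppm1h (0.96), and Ctss to Sumf1 (0.96), the sulfatase-activating enzyme, and Lmbrd1 (0.95). For Ctsk they were Slc39a11 (0.96) and Hsdl1 (0.95), for Ctsc Cd47 (0.92) and Cd69 (0.92), and for Ctsh H2-Q7 (0.95), an MHC class I gene, and Plagl2 (0.94). Ctsl was nearest to Plpp3 (0.95) and Cdk20 (0.93). Cdk20 also adjoins Ctsl on chromosome 13, 61423 bases away, and averaged 13.7 CPM.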

How the data were processed

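Total RNA of 17 cultures was sequenced as strand-specific paired-end reads. The authors trimmed reads with Cutadapt (1.18 in the submitters' processing notes), aligned them to GRCm38 with HISAT2 2.1.0 and derived counts per gene from StringTie coverage. The deposited counts are whole numbers, not normalized. A count therefore depends on how coverage was divided between overlapping transcripts.

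CPM with TMM library sizes (edgeR 4.0.16, R 4.3.3) and log2 CPM (prior count of 2) were computed here. Genes above 10 CPM in at least 2 libraries were kept (10481). All libraries were fitted in edgeR with 1 mean per group and no covariate, because the sources used here do not name the batch of each library. Benjamini-Hochberg adjustment covered all genes kept. In counts simulated for Ephb4 CKO versus control after bleomycin over 10481 genes, 157 of 200 genes changed by a log2 fold change of 3 were called. Smaller changes, such as the 0.39 to 1.66 fitted for the members, were not simulated, nor were differences in cell content. The share called therefore does not apply to the members. Members and lists were chosen with earlier results of these data known. Every member is named. Of other lists the 2 genes with the highest mean CPM are named, as edgeR called no list gene (1 of these genes is not reported here), and for each member the 2 genes of highest Spearman correlation. Exon lengths and positions are from GENCODE M21 (GRCm38). Alternatives used DESeq2 1.42.0, limma 3.58.1, other scalings, filters and covariates, and each mouse left out. The p-values of the comparisons set each difference against the spread between these mice.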

Additional observations from a re-analysis of the deposited data

Results flagged for a closer look

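Of 40 combinations of a gene and a group, 2 had a library that stood apart by the ratio of its gap to the range of the group on the log2 CPM scale (Dixon's 95% limit), a rule by which chance flags about 1 group in 20. Ctsd was at 1284 CPM in mouse 1 of the Ephb4 control bleomycin group, against 12448 to 17306 CPM in the other 3 (ratio 0.873). Lgmn was at 2418 CPM in mouse 5 of the Ephb4 CKO PBS group, against 328 to 583 CPM in the other 4 (ratio 0.712, just past the limit). The macrophage marker mean was the lowest of the 17 in the former library (3.60 log2 CPM) and the highest in the latter (9.11). Their part in these values was not tested.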

How the results depend on the processing

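None of the 10 genes was called in any of the 5 comparisons under any alternative, and the smallest adjusted p was 0.0725 (Ctsh, Ephb4 CKO versus control after bleomycin, DESeq2). The smallest adjusted p of the members was 0.108 for bleomycin in Ephb4 control mice. Apart from leaving out single mice, the sign reversed in 15 of 150 values for bleomycin in control mice, 4 of 150 for CKO after bleomycin, 2 of 150 for CKO after PBS, 16 of 150 for bleomycin in CKO mice and 21 of 140 for the interaction, for which a fit on only the groups compared could not be made. All values below are log2 fold changes or their differences, and the cause of each reversal was not tested.

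For bleomycin in Ephb4 control mice, the fibroblast mean as a covariate gave Ctsb 0.13, Ctsd 0.24, Ctsk 0.51, Ctsz 0.044 and Lgmn 0.12, and the macrophage mean gave Ctsl 0.37, Ctss 0.15 and Lgmn 0.58. Library totals alone gave Ctsl 0.16 and Lgmn 0.14, recorded sex Ctsl 0.014 and Lgmn 0.074, number series 12 alone, which holds 1 control PBS library, Ctsl 0.23 and Lgmn 0.31, and the number series as a covariate Lgmn 0.10. For CKO after bleomycin, Ctsc was -0.064 with the number series as a covariate and -0.30 in series 12 alone, Ctsk -0.055 with the fibroblast mean and Lgmn -0.028 with the macrophage mean. For CKO after PBS, Ctsd was -0.00060 in series 12 alone and Ctsk -0.014 with library totals alone.

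For bleomycin in CKO mice, limma voom gave Ctsb 0.0022, Ctss 0.13 and Lgmn 0.0049. Library totals alone gave Ctsb 0.15, Ctsk 0.047 and Ctss 0.18, the fibroblast mean Ctsb 0.053, Ctsk 0.039 and Ctss 0.024, and the macrophage mean Ctsd -0.17 and Psap -0.074. Series 12 alone gave Ctsb 0.43, Ctsl 0.039, Ctss 0.62 and Lgmn 1.16, and without the 3 libraries against the recorded sex Ctsk was 0.23. For the interaction, the macrophage mean gave Ctsb -0.055, Ctsc -0.13, Ctsd -0.017 and Ctss -0.26, and the fibroblast mean Ctsb -0.072, Ctsd -0.070, Ctsk -0.48 and Ctsz -0.28. Ctsc was -0.074 with DESeq2 and the sorted runs of columns, -0.018 with voom, -0.044 with library totals, -0.018 with filterByExpr, -0.0051 with no filter, -0.48 with the number series, -0.45 in series 12 and -0.058 with the column run in edgeR, a setting chosen after seeing the data. Ctsh was -0.13 in series 12. Lgmn was 0.086 with DESeq2 and the runs, 0.35 with voom, 0.85 in series 12 and 0.11 with the column run in edgeR.

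With each mouse left out in turn, for bleomycin in control mice Ctsl ranged from -0.54 to 0.13 and Lgmn from -0.87 to 0.45. For CKO after bleomycin Ctsc ranged from -0.031 to 0.66, and for CKO after PBS Ctsd from -0.11 to 0.41 and Ctsk from -0.23 to 1.29. For bleomycin in CKO mice the ranges were -0.23 to 0.25 for Ctsb, -0.072 to 0.20 for Ctsd, -0.77 to 0.21 for Ctsk, -0.40 to 0.51 for Ctss, -0.63 to 0.66 for Lgmn and -0.12 to 0.22 for Psap. For the interaction they were -0.38 to 0.30 for Ctsc, -1.44 to 0.0047 for Ctsl, -0.024 to 1.02 for Ctss and -0.67 to 0.76 for Lgmn.

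Over all genes, edgeR called 0 in each comparison, with 1494, 2119, 209, 101 and 363 at an unadjusted p under 0.05 in the order above. DESeq2 called 166 for bleomycin in control mice, 399 for CKO after bleomycin, 1 for CKO after PBS, 1 for bleomycin in CKO mice and 0 for the interaction. With the sorted runs of columns it called 231, 387, 1 for bleomycin in CKO mice and 1 for the interaction. Series 12 alone gave 4 for bleomycin in CKO mice. Leaving out single mice gave 0 to 2 genes for bleomycin in control mice (2 without mouse 2 of the CKO bleomycin group) and 0 to 1 for CKO after bleomycin (1 without mouse 2 of the control bleomycin group). Of the gene lists and cell type markers, DESeq2 called Marco, Thy1 and Actg2 for bleomycin in control mice (with the runs Marco, Col3a1, Postn, Actg2 and Acp5) and Marco, Col1a1, Fap and Atp6v1b2 for CKO after bleomycin (with the runs Marco and Fap), and series 12 alone gave Actg2 for bleomycin in CKO mice. Library totals alone shifted the median of all genes to 0.15, -0.22, -0.17, 0.11 and -0.07. No paired analysis was possible because the replicate numbers follow the order of the samples and the labels pair no mice. The lowest level of any member was 59.7 CPM (Ctss) in libraries of at least 66540022 counts, so counting error was small beside the spread between mice.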
